A study of Mus musculus with 54 samples.

Results

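Mammary glands of mice on pregnancy day 8.5 were compared with glands from pregnancy day 3, with 3 mice on each day. These 6 arrays, titled with the letters A to C on each day, belong to a series of 54 1-channel Affymetrix arrays that follows the gland over 18 time points of virgin life, pregnancy, lactation and involution. Each array held RNA from 1 inguinal gland of 1 mouse, with its lymph node taken out. Mating took place at an age of 12 weeks, and the morning on which a plug was found counted as day 0.5. No allele, agent or treatment separates the days, and no strain is stated in the labels used here. Values are MAS5 signals, a measure of brightness in arbitrary units, and all 12422 non-control probe sets of 12488 entered the selection. After a filter on dim probe sets and with 1 probe set standing for each gene, 7311 features remained, called genes here, of which 6441 carried exactly 1 gene symbol.

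Early pregnancy turns the ductal tree of the virgin gland into a secretory one. Progesterone and prolactin drive side branching and then the outgrowth of alveoli, with ovarian and pituitary hormones relayed by receptors, by the kinase JAK2 and the transcription factor STAT5, and by paracrine signals such as RANK ligand, WNT4 and R-spondin 1. Elf5, an ETS transcription factor, is required for the alveolar lineage. Casein genes are switched on while alveoli are still forming, whereas whey acidic protein and alpha-lactalbumin follow later. Fat cells fill most of the gland at this stage and shrink in share as alveoli spread.

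The caseins Csn1s2a and Csn2 rose most between day 3 and day 8.5. Csn3, Elf5, fibromodulin (Fmod), connexin 30 (Gjb6) and several genes of lipid handling also rose. As deposited, larger numbers of genes fell, among them Sox4, Elf3, Jun, Mmp14 and claudin genes, an excess that depended on the scaling. In limma fitted over all 54 arrays, 1340 of 7311 genes (18.3%) passed a Benjamini-Hochberg adjusted p of 0.05, which is what called means below. Of these, 435 were higher on day 8.5 (5.95% of all tested) and 905 were lower (12.4%). The median size of the log2 difference was 0.84 among the genes that rose and 1.01 among those that fell. The 3 + 3 arrays did not overlap in 398 of the 435 and in 834 of the 905, against 2600 of all 7311 genes (35.6%).

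How many genes fell and how many rose depended on the scaling of the arrays. The median log2 difference over all genes was −0.15 as deposited, 0.00 after quantile normalization and 0.18 after each array was scaled to the same median. Calls split into 435 higher and 905 lower as deposited, 479 and 484 after quantile normalization, and 1296 and 269 after median scaling. Under both other scalings 350 of the genes that rose and 229 of those that fell kept their call, and 77 and 133 of these also kept it when any 1 of the 6 arrays was left out. The count of calls moved from 1340 to 413 without day 3 mouse B, 685 without day 3 mouse C, 397 without day 8.5 mouse A and 527 without day 8.5 mouse C. It stood at 1122 without day 3 mouse A and 1879 without day 8.5 mouse B. With only the 6 arrays in the fit, limma called 6 genes, 4 higher (Csn1s2a, Csn2, Csn3 and Fmod) and 2 lower, both probe sets without a symbol, while 2315 had an unadjusted p under 0.05.

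Dim and bright genes shifted differently. Among 4 equal groups by mean signal, the dimmest, with means of 9.4 to 37.5, had a median log2 difference of −0.38 and held 20 higher and 225 lower calls. The brightest, with means of 193 and above, had a median of 0.12, with 258 higher and 161 lower. The intermediate groups had medians of −0.28 and −0.09. Array medians were 42.6 ± 2.03 (SD, n = 3) on day 3 and 33.3 ± 1.41 on day 8.5, and 23.0% ± 1.72 against 27.9% ± 1.59 of the probe sets lay under the floor of 9.4 at which low signals were set. The 3' to 5' signal ratio of the beta-actin controls, a sign of RNA integrity, was 2.45 ± 0.235 on day 3 and 3.01 ± 1.38 on day 8.5, and 1410 genes were called with it as a covariate. Across genes, r was 0.927 to 0.961 between arrays of the same day and 0.880 to 0.944 between arrays of different days. Day 8.5 mouse B stood apart: it correlated at 0.944 with day 3 mouse A, and at 0.939 and 0.927 with day 8.5 mice A and C. Its beta-actin ratio was 1.43, against 3.67 and 3.94 in those mice.

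**Figure D1:**
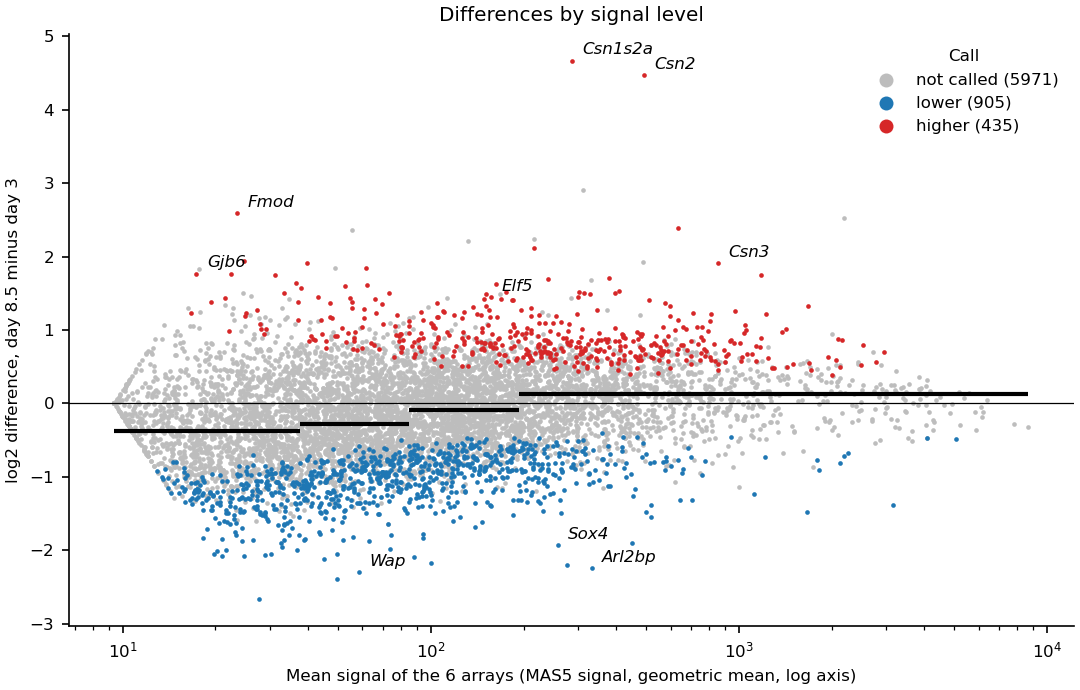
Log2 difference of each gene (day 8.5 minus day 3, vertical) against its mean signal over both days (horizontal, log scale), with called genes coloured by direction and black bars at the median of each of 4 equal groups by mean signal. The medians climb from −0.38 in the dimmest group to 0.12 in the brightest, and Csn1s2a and Csn2 stand far above the rest.

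Milk protein genes gave the widest changes. Casein alpha s2-like A (Csn1s2a), a calcium-binding casein, read 42.5, 44.9 and 97.6 in the 3 mice of day 3 and 904.8, 1760.3 and 1922.4 on day 8.5. Every day 8.5 mouse lay far above every day 3 mouse, and the log2 difference was 4.67 ± 0.64 (SE), a 25.4-fold rise with a limma adjusted p of 2.6e-05. Beta-casein (Csn2), the most abundant casein of mouse milk, gave 82.5, 107.7 and 129.2 on day 3 and 1805.9, 2314.5 and 2994.4 on day 8.5. Its groups were also far apart, with a difference of 4.47 ± 0.67 (22.2-fold, limma adjusted p 0.00011). Kappa-casein (Csn3), which stabilises the micelle, read 530.8, 389.2 and 417.8 and then 1492.6, 1610.9 and 1890.3, with no overlap and a difference of 1.91 ± 0.42 (3.75-fold, limma adjusted p 0.0031). Groups apart was a condition for ranking these 3 genes among the largest rises. They kept their call in each of the 22 alternative settings run. Butyrophilin (Btn1a1), a coat protein of the milk fat globule, rose as well, from 33.0, 22.9 and 48.2 to 70.0, 87.3 and 117.6. The groups did not overlap and the difference was 1.43 ± 0.37 (limma adjusted p 0.009), but the call was lost without day 3 mouse B or day 8.5 mouse C (adjusted p up to 0.076).

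Whey acidic protein (Wap), a protease inhibitor-like milk protein, moved the other way. It read 155.0, 114.4 and 121.8 on day 3 and 23.1, 50.3 and 15.7 on day 8.5, so that all day 8.5 mice were below all day 3 mice. The log2 difference was −2.30 ± 0.78 (limma adjusted p 0.036). This call was lost under both other scalings, without a floor, with the Arl2bp signal as a covariate (adjusted p 0.14) and when any array but day 8.5 mouse B was left out (adjusted p up to 0.15). Mice of the neighbouring time points were uneven in Wap: 416.3, 218.3 and 3.8 on day 1 and 11.5, 190.0 and 229.9 on day 2. The 3 virgin mice of 12 weeks read 221.3, 238.2 and 281.9. By day 12.5 the signals were 870.0, 1532.4 and 754.9, above every earlier pregnancy array.

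**Figure D2:**
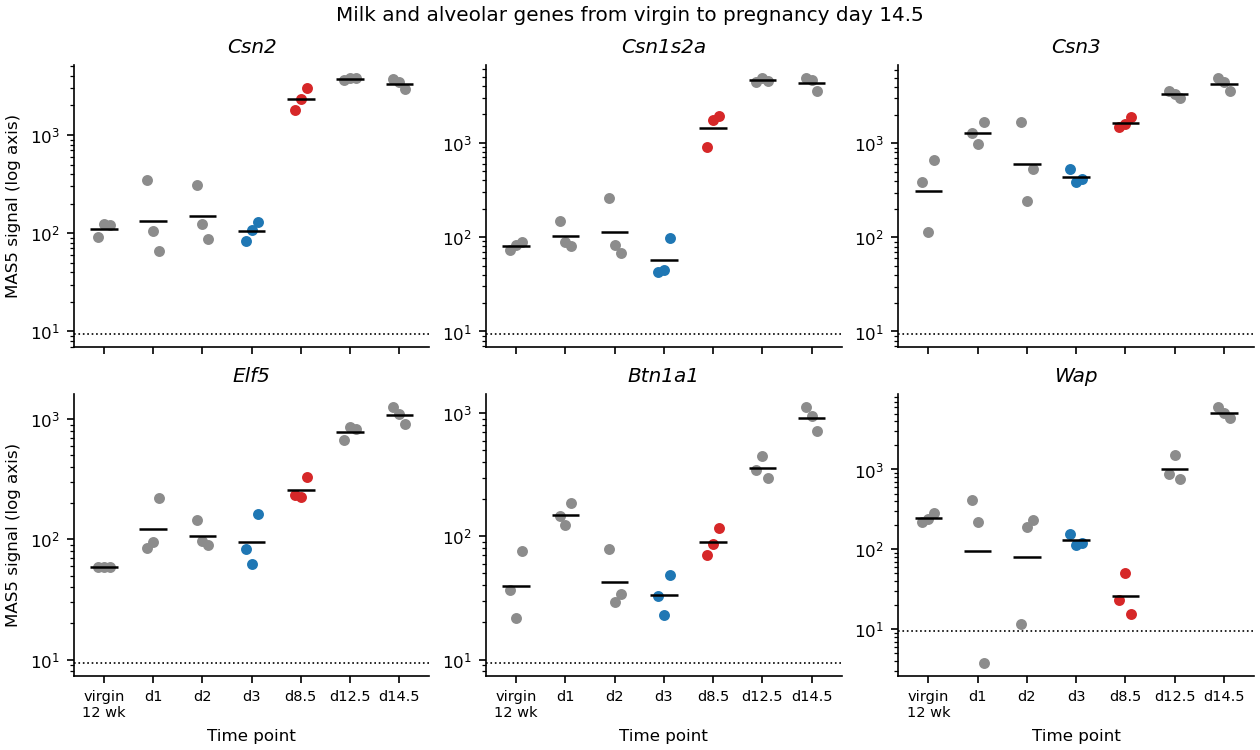
MAS5 signal (vertical, log scale) of 6 genes in each mouse from virgin 12 weeks to pregnancy day 14.5 (horizontal), with bars at the geometric mean of 3 mice, day 3 in blue, day 8.5 in red and a dotted line at the floor of 9.4. Csn2 and Csn1s2a step up between day 3 and day 8.5, Elf5 and Btn1a1 keep climbing to day 14.5, and Wap is at its lowest on day 8.5, with a mean of 26.3, before it reaches 5146 on day 14.5.

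Over the milk protein list, 4 of 11 tested members rose and 1 fell, where 5.95% of all genes rose and 12.4% fell. The median log2 difference was 0.19 beside −0.15 for all genes. Csn1s2a, Csn2 and Csn3 kept the call under both other scalings and in each leave-out. The split was 4 and 0 after quantile normalization and 5 and 0 after median scaling. Csn1s1, the alpha s1-casein gene, had a difference of 2.53 that did not pass (limma adjusted p 0.058). Lalba, the gene of the lactose synthase subunit alpha-lactalbumin, read 11.7 or less in all 6 arrays. The mean log2 signal over the list was 6.52, 6.50 and 6.81 in the day 3 mice and 7.49, 7.73 and 7.78 in the day 8.5 mice, without overlap.

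Promoter windows were read for the caseins with the widest change and for Wap, since STAT5 and the glucocorticoid and progesterone receptors are known regulators of milk protein genes. Each window holds the 250 bases before the RefSeq start site on GRCm38.p6, given 5′ to 3′ along the gene. Capitals mark a STAT site, TTCNNNGAA, or a receptor element, AGAACA on either strand. That of Csn2 spans chr5:87699426-87699675 on the minus strand and holds TTCTTGGAA from 93 to 85 bases before the start. The window of Csn1s2a spans chr5:87774200-87774449 on the plus strand and holds TGTTCT, the complement strand of the receptor element, from 59 to 54 bases before the start. For Wap it spans chr11:6638650-6638899 on the minus strand and holds neither motif.
Csn2: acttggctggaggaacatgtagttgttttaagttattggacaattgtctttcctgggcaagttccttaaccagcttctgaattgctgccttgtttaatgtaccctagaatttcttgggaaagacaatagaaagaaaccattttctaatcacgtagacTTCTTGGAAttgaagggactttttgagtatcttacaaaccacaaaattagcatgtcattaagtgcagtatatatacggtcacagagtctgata
Csn1s2a: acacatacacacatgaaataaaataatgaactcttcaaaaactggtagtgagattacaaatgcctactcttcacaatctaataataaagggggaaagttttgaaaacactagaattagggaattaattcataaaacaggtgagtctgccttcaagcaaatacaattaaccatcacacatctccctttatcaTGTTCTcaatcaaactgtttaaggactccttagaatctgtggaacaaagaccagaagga
Wap: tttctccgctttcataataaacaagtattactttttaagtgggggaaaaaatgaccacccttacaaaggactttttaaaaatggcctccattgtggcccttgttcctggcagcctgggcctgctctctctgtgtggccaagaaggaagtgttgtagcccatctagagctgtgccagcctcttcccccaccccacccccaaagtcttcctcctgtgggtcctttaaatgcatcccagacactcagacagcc

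The same motifs were counted in the promoter windows of all tested genes. The table gave 6661 windows for 5158 of the 6441 tested genes with 1 symbol. TTCNNNGAA on both strands was present in 15 of 395 windows of genes that rose (3.80%), in 48 of 800 of those that fell (6.00%) and in 384 of all windows (5.76%). For AGAACA the shares were 12.2%, 12.6% and 11.6%. TTTGAA, the cell cycle homology region, which can lie inside a TTCNNNGAA match, was in 13.7%, 10.0% and 10.6%, and CCAAT in 33.2%, 30.8% and 34.3%. These are counts of letters, and Csn3 and Btn1a1 were not matched.

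Among regulators of alveolar growth, Elf5 was called and most others were not. Elf5 read 83.0, 62.9 and 163.2 on day 3 and 232.2, 225.6 and 328.5 on day 8.5. The day 8.5 mice were all higher, by 1.45 ± 0.29 on the log2 scale (2.72-fold, limma adjusted p 0.0016), and the call held in each leave-out, under both scalings and with the Arl2bp covariate. Rspo1, the gene of R-spondin 1, a secreted enhancer of WNT signalling, gave 60.7, 57.8 and 64.6 against 103.4, 141.3 and 115.0. The difference of 0.96 ± 0.30 (limma adjusted p 0.023) was lost in 5 of the 6 leave-outs (adjusted p up to 0.085), all except that of day 3 mouse A. Gata3, a luminal transcription factor, went from 259.4, 249.6 and 295.4 to 137.7, 128.1 and 166.9, lower in every mouse of day 8.5. Its difference of −0.90 ± 0.26 (limma adjusted p 0.017) was not called after median scaling, nor without day 3 mouse C or day 8.5 mouse A (adjusted p up to 0.07). Of the 19 tested genes of steroid, prolactin and STAT5 signalling, these were the only calls, 2 higher and 1 lower, with a median of −0.33. Over all genes, 5.95% were higher and 12.4% lower. Socs3 was not called, at −0.63. In the fit of all probe sets, another probe set of Socs3 was called lower, with a difference of −1.60 (limma adjusted p 0.023). Tnfsf11, which encodes RANK ligand, had a difference of 0.35 and Wnt4 one of −0.57, both with overlapping groups and no call.

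Genes of lipid uptake and lipid coating rose more often than they fell. In the list of milk fat globule and lipid uptake genes, 5 of 12 were higher and 1 was lower, where 5.95% of all genes were higher and 12.4% lower. The list median was 0.58 against −0.15 for all genes. Lipoprotein lipase (Lpl), which releases fatty acids from circulating lipoproteins, read 1689.1, 1410.5 and 1705.9 on day 3 and 2762.5, 2271.1 and 3952.2 on day 8.5. No day 8.5 mouse was as low as a day 3 mouse, and the difference was 0.87 ± 0.20 (limma adjusted p 0.0041), with an adjusted p of 0.053 without day 8.5 mouse C. Another probe set of Lpl differed by 0.07. The fatty acid transporter Cd36 went from 107.7, 54.3 and 63.7 to 170.1, 133.7 and 217.8, a difference of 1.24 ± 0.33 (limma adjusted p 0.01). Fabp5, a fatty acid-binding protein, rose by 1.09 (limma adjusted p 0.01) and Cd24a, a surface glycoprotein of luminal cells, by 0.78 (limma adjusted p 0.008). The calls of these 3 genes were lost without day 3 mouse B or day 8.5 mouse C, with adjusted p up to 0.077 for Cd36, 0.059 for Fabp5 and 0.056 for Cd24a. Mfge8, the gene of lactadherin, was the member that fell, by 0.67, a call that ended after median scaling and without day 3 mouse B or C or day 8.5 mouse A or C (adjusted p up to 0.12).

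Enzymes that make cholesterol and long fatty acids were higher in part. Calls of these lists are read beside 5.95% of all genes higher and 12.4% lower. Squalene epoxidase (Sqle), a rate-limiting step of sterol synthesis, read 107.6, 82.6 and 110.5 and then 201.3, 298.0 and 229.1. The groups were apart, the difference was 1.27 ± 0.28 (limma adjusted p 0.0027), and it was called in each leave-out. Idi1, an isomerase of the same pathway, rose from 164.9, 93.7 and 158.6 to 332.3, 267.6 and 409.1. Its difference of 1.30 ± 0.35 (limma adjusted p 0.01) was lost without day 3 mouse B or day 8.5 mouse C (adjusted p up to 0.091). Mevalonate kinase (Mvk) opposed them, with 252.7, 175.3 and 194.6 falling to 48.8, 115.0 and 54.9 and a difference of −1.60 ± 0.33 (limma adjusted p 0.002). A dimmer probe set of Mvk gave 7.0, 9.4 and 12.0 against 13.2, 22.8 and 46.2, a difference of 1.24 in the opposite direction, so the direction of Mvk depends on the probe set. Over the cholesterol list 3 of 14 rose and 1 fell, with a median of 0.36, and of the 4 (Fdps is the last) Sqle and Mvk were the members that kept their call through both scalings and all leave-outs. Over the fatty acid and triglyceride list 3 of 17 rose (Elovl6, Scd2, Thrsp) and 1 fell (Elovl1), with a median of 0.23. None of these calls held in every leave-out, and each was lost without day 3 mouse B and without day 8.5 mouse C. The elongase Elovl6 had the largest change there, from 937.1, 373.6 and 708.5 to 1173.5, 1704.7 and 1718.5. That difference of 1.26 ± 0.39 (limma adjusted p 0.022) was lost without day 3 mouse B or day 8.5 mouse C (adjusted p up to 0.17).

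Several adipocyte products rose, while the adipocyte list as a whole overlapped between the days. Of 18 white adipocyte markers tested, 5 were higher (Lep, Rbp4, Lpl, Retn, Pparg) and 0 lower, and the median was 0.10. Among all genes 5.95% were higher and 12.4% lower. Retn lost its call (adjusted p up to 0.19) in every leave-out but that of day 3 mouse A. Pparg lost it (adjusted p up to 0.22) in every one but that of day 8.5 mouse B. Retinol-binding protein 4 (Rbp4) gave 566.0, 370.5 and 474.6 on day 3 and 1124.7, 981.1 and 1151.5 on day 8.5, well apart, with a difference of 1.22 ± 0.24 (limma adjusted p 0.0016) that each leave-out kept. Leptin (Lep) read 328.9, 311.6 and 297.3 against 971.2, 568.7 and 1044.1. Its difference was 1.41 ± 0.38 (limma adjusted p 0.011), and the adjusted p was up to 0.064 without day 8.5 mouse A or day 8.5 mouse C. Adiponectin (Adipoq) was not called, at 3641.3, 3081.3 and 3446.9 against 4121.8, 3828.9 and 5204.6. The summed signal of the list ran from 19545 to 22639 on day 3 and from 22136 to 25416 on day 8.5, ranges that overlap. Hsd11b1, which regenerates active glucocorticoid and is abundant in fat and liver, rose from 172.9, 122.8 and 112.8 to 420.2, 333.3 and 577.3, a difference of 1.69 ± 0.33 (limma adjusted p 0.0012).

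Outside the milk protein and lipid lists, the widest rises came from genes of varied function. Fibromodulin (Fmod), a small proteoglycan that binds collagen, was near or under the floor on day 3 (5.3, 9.8 and 7.1) and read 46.6, 71.7 and 57.3 on day 8.5. With low signals set to 9.4 the difference was 2.60 ± 0.58 (limma adjusted p 0.0033), and it was called in all 22 alternatives, while another probe set of Fmod differed by 0.10. The gap junction gene Gjb6 lay under the floor in all day 3 mice (4.6, 4.5 and 5.8) and read 16.9, 42.2 and 46.0 on day 8.5, at least 3.41-fold higher against the floor (limma adjusted p 0.00021). Its next brightest probe set differed by 1.16 in the same direction. Yipf4, a membrane protein of the Golgi, rose from 93.3, 138.6 and 87.2 to 604.9, 258.2 and 586.0, or 2.11 ± 0.43 (limma adjusted p 0.0016). Sar1b, a GTPase that starts vesicle budding from the endoplasmic reticulum, went from 126.8, 63.6 and 99.5 to 342.5, 274.9 and 250, a difference of 1.62 ± 0.28 (limma adjusted p 0.0008). Proenkephalin (Penk), an opioid precursor, rose from 191.1, 233.5 and 314.4 to 886.9, 531.8 and 708.2, or 1.52 ± 0.28 (limma adjusted p 0.00097). Groups apart was a condition for naming these 5 genes among the largest rises. Each leave-out kept their calls. The calls of Vamp5 (1.91), Wdr74 (1.64) and Gsta4 (1.61), also among the largest rises, were each lost without day 3 mouse B and in other leave-outs, with adjusted p up to 0.066, 0.23 and 0.34.

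Alb and Orm1 were among the 15 largest rises. Albumin (Alb), the main serum protein, read 37.6, 36.6 and 25.2 on day 3 and 195.3, 124.3 and 65.5 on day 8.5. The difference was 1.84 ± 0.36 (limma adjusted p 0.0012). Orosomucoid 1 (Orm1), an acute phase glycoprotein, went from 339.0, 152.9 and 176.5 to 690.6, 778.0 and 596.0, a difference of 1.71 ± 0.37 (limma adjusted p 0.0025). Both held in each leave-out. Over all genes, 5.95% were higher and 12.4% lower. The acute phase and innate defence list was mixed, with 3 of 17 higher (Orm1, Slpi, Cp), 2 lower (Cfb, Lrg1) and a median of 0.13. Of these, only Orm1 kept its call in each leave-out, and the others lost theirs without day 3 mouse B, with adjusted p up to 0.099 for Cp, 0.15 for Cfb and 0.19 for Lrg1 over the leave-outs. The protease inhibitor Slpi read 86.4, 134.0 and 110.4 against 186.4, 435.8 and 183.3, or 1.18 (limma adjusted p 0.027), and lost its call without any 1 day 3 mouse or day 8.5 mouse B (adjusted p up to 0.15). Other probe sets of Slpi disagreed: in the fit of all probe sets their differences were 0.23, −0.21 and −1.25, the last called lower (24.7, 31.7 and 33.2 against 15.6, 13.1 and 7.2, limma adjusted p 0.043). Of 19 interferon-stimulated genes, the GTPases Gbp2 (0.97) and Gbp3 (1.07) rose and none fell. Both calls were lost without day 3 mouse B or day 8.5 mouse A, with adjusted p up to 0.053 for Gbp2 and 0.13 for Gbp3 over the leave-outs.

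Markers of luminal epithelium moved in both directions. Of 18 tested, 2 rose (Elf5, Cd24a) and 5 fell (Cldn4, Elf3, Cldn3, Rab25, Cdh1), beside 5.95% and 12.4% of all genes, with a median of −0.69 as deposited, −0.74 after quantile normalization and −0.34 after median scaling. Elf3, an epithelial ETS factor, read 107.5, 121.7 and 88.3 on day 3 and 33.0, 36.2 and 22 on day 8.5. All day 8.5 mice were lower, with a difference of −1.82 ± 0.44 (limma adjusted p 0.0055), and each leave-out kept the call. The tight junction gene Cldn4 went from 158.4, 215.0 and 175.9 to 21.2, 35.7 and 103.4, a difference of −2.09 ± 0.54 (limma adjusted p 0.009). Mouse C of day 8.5 stood nearest to day 3, and without mouse A of that day the adjusted p was 0.098. Cldn3 fell from 514.6, 506.6 and 438.3 to 144.2, 281.2 and 306.3, or −1.07 (limma adjusted p 0.014), and was not called after median scaling, nor without day 3 mouse B or day 8.5 mouse A (adjusted p up to 0.16). E-cadherin (Cdh1) differed by −0.96 (limma adjusted p 0.008) and Rab25, a vesicle GTPase of epithelia, by −0.97 (limma adjusted p 0.0091). Without day 8.5 mouse C their adjusted p was 0.072 and 0.064.

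The keratins that define luminal cells did not pass. Krt8 read 839.6, 879.8 and 724.6 on day 3 and 447.4, 618.0 and 568.1 on day 8.5, below in every mouse but with a difference of −0.59 and an adjusted p of 0.18 in limma. Krt18 differed by −0.78 with overlapping groups. The mean log2 signal of the luminal list was 7.29, 7.10 and 7.09 on day 3 and 6.42, 6.69 and 6.81 on day 8.5, lower in every mouse. These are whole glands, so fewer cells of a type and less RNA per cell cannot be told apart. Of 13 basal and myoepithelial markers, the contractile genes Myh11 (0.89) and Mylk (0.62) rose and Trp63 (−0.77) and Sfn (−1.35) fell. None of these 4 calls held in every leave-out: each was lost without day 8.5 mouse C, and others of the 6 arrays ended them too, with adjusted p up to 0.083 for Myh11, 0.18 for Mylk, 0.20 for Trp63 and 0.21 for Sfn. The list median was −0.30, and over all genes 5.95% rose and 12.4% fell.

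Sox4, Krt6b, Ly6d and Igll1 were among the 15 largest falls. Sox4, a transcription factor of progenitor cells in many tissues, read 432.6, 466.1 and 635.2 on day 3 and 82.9, 202.3 and 139.2 on day 8.5. Its difference was −1.93 ± 0.34 (3.80-fold lower, limma adjusted p 0.00087), and another probe set gave −1.58. Krt6b, a keratin of stratified epithelium, fell from 97.9, 105.5 and 98.5 to 22.4, 54.3 and 11.9, or −2.05 ± 0.45 (limma adjusted p 0.0029). Ly6d, a surface protein of keratinocytes and lymphoid cells, went from 51.1, 49.0 and 52.7 to 12.1, 15.2 and 7.6, a difference of −2.08 ± 0.54 (limma adjusted p 0.0091). Igll1, a surrogate light chain gene of precursor B cells, fell from 51.6, 52.9 and 29.2 to 8.4, 9.8 and 11.6, or −2.07 ± 0.39 (limma adjusted p 0.00097). Another probe set of Igll1 read 27.3, 32.1 and 20 against 12.3, 15.3 and 19. Its difference of −0.76 was not called in the fit of all probe sets (limma adjusted p 0.29). The day 8.5 signals of Ly6d and of the brighter Igll1 probe set lay close to the floor, which limits the size of their differences. Groups apart was a condition for naming these 4 genes among the largest falls. All leave-outs kept their calls.

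Further falls of this size were found in Xist, Cyfip2 and Slc6a20b. Xist, the RNA that silences an X chromosome in female cells, read 40, 57.1 and 90.6 against 7.8, 14.3 and 21.2, a difference of −2.06 ± 0.43 (limma adjusted p 0.0022). Cyfip2, an actin regulator, read 35.2, 47.6 and 47.9 against 9.4, 14.3 and 8.9, or −2.0 ± 0.37 (limma adjusted p 0.00097). Slc6a20b, an amino acid transporter, differed by −1.86 ± 0.36 (limma adjusted p 0.0012). Their day 8.5 signals lay close to the floor of 9.4. Prkar1b, a regulatory subunit of protein kinase A, had the largest fall of all, −2.40 ± 0.58 (limma adjusted p 0.0055), with an adjusted p of 0.057 without day 8.5 mouse C and a difference of 0.14 in another probe set.

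Immediate early genes were called in both directions, as were cell cycle genes. Jun, a subunit of the AP-1 transcription factor, read 136.7, 159.1 and 114.4 on day 3 and 66.0, 53.5 and 43.0 on day 8.5, apart, with a difference of −1.34 ± 0.26 (limma adjusted p 0.0012) kept in each leave-out. Junb went from 127.3, 117.8 and 163.2 to 39.6, 62.5 and 50.5, or −1.43 ± 0.37 (limma adjusted p 0.0081), with an adjusted p of 0.058 without day 8.5 mouse A. The phosphatase gene Dusp1 opposed them, with 112.9, 130.0 and 140.4 rising to 229.9, 328.3 and 261.4, a difference of 1.09 ± 0.27 (limma adjusted p 0.0068). Of 19 immediate early genes 1 rose and 4 fell (Jun, Junb, Fosb, Jund), with a median of −0.29, where 5.95% of all genes rose and 12.4% fell. Fosb and Jund were not called after median scaling, and both lost their call without day 3 mouse B or C or day 8.5 mouse A or C, with adjusted p up to 0.18 and 0.14. Of 37 cell cycle and DNA replication genes 4 fell (Foxm1, Kif20a, Ccna2, Cdc20) and 1 rose (Prim1), shares no higher than those of all genes, with a median of −0.41. That median was −0.17 after quantile normalization and −0.06 after median scaling. Foxm1, a transcription factor of mitotic genes, read 121.8, 121.6 and 117.6 against 45.2, 82.1 and 9.6, or −1.87 (limma adjusted p 0.011). Day 8.5 mouse C was by far its lowest, and the adjusted p without that mouse was 0.18. None of the 5 calls of this list held in every leave-out: all were lost without day 8.5 mouse C, and all but Foxm1 without day 3 mouse B or day 8.5 mouse A too. Calls also depended on the probe set. In the fit of all probe sets, dimmer ones of the uncalled Plk1 (−1.68, limma adjusted p 0.020) and Mki67 (−1.10, 0.032) were called lower. Another of Plk1 (0.24) and dimmer ones of Kif20a (0.08) and Foxm1 (−0.50) were not called.

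Matrix genes moved in both directions. Mmp14, a membrane protease that cleaves collagen, read 763.5, 929.4 and 992.6 on day 3 and 248.7, 454.8 and 248.6 on day 8.5. The groups were apart, the difference was −1.55 ± 0.36 (2.93-fold lower, limma adjusted p 0.0042), and each leave-out kept it. Tenascin C (Tnc), a matrix glycoprotein, fell from 68.1, 82.0 and 53.6 to 28.7, 24.5 and 30.2, or −1.27 ± 0.31 (limma adjusted p 0.0052), while a dimmer probe set of Tnc differed by 0.17. Over the remodelling list 5 of 21 fell, with Ctsk (−1.01), Loxl1 (−1.08) and Fn1 (−0.80) beside Mmp14 and Tnc, and 3 lysosomal cathepsins rose, Ctsl (0.80), Ctss (0.77) and Ctsb (0.49). The list median was −0.47. Ctsl had an adjusted p of 0.052 without day 8.5 mouse C, Ctsb up to 0.089 without day 3 mouse C or day 8.5 mouse A, and Ctss lost its call in 5 leave-outs (up to 0.23), all but that of day 8.5 mouse B. Fn1 reached 0.068 without day 3 mouse B, Ctsk up to 0.066 without day 3 mouse B or day 8.5 mouse C, and Loxl1 lost its call in each leave-out but that of day 8.5 mouse B (up to 0.12). Mmp14 and Tnc were the members that held under both scalings and all leave-outs. Of 17 basement membrane genes 0 rose and 5 fell (Hspg2, Lama5, Lamb2, Col18a1, Agrn), where 5.95% of all genes rose and 12.4% fell, and the median was −0.26. After median scaling 1 of them was lower and the median was 0.09, so the direction of this list depended on the scaling. Perlecan (Hspg2) read 289.8, 304.7 and 342.4 against 68.0, 130.1 and 146.8, or −1.51 (limma adjusted p 0.019, up to 0.14 without day 3 mouse B, day 3 mouse C or day 8.5 mouse A). Each of the other 4 was lost without day 3 mouse B, with adjusted p up to 0.18 for Lama5, 0.34 for Lamb2, 0.11 for Col18a1 and 0.16 for Agrn over the leave-outs.

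The remaining pathway lists are read against 5.95% of all genes higher and 12.4% lower. In the secretory pathway and ER folding list 1 of 21 rose (Copz1, 0.57) and 2 fell (Canx, −0.80; Sec61a1, −0.91), with a median of −0.03. The chaperone Canx had a second probe set with a difference of 0.25, and its call was lost after median scaling. Copz1 lost its call without day 3 mouse C or day 8.5 mouse B (adjusted p up to 0.093), and Sec61a1 in each leave-out of day 3 mouse B or C or day 8.5 mouse A or C (up to 0.18). Of 16 milk ion, glucose and amino acid transporters, Gjb6 rose and Slc7a5 (−0.83) fell, with a median of 0.00, and Slc7a5 lost its call without day 3 mouse B, among others (adjusted p up to 0.088). Of 10 genes of immunoglobulin transport and chemokines none was called by limma, and the median was 0.31.

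**Figure D3:**
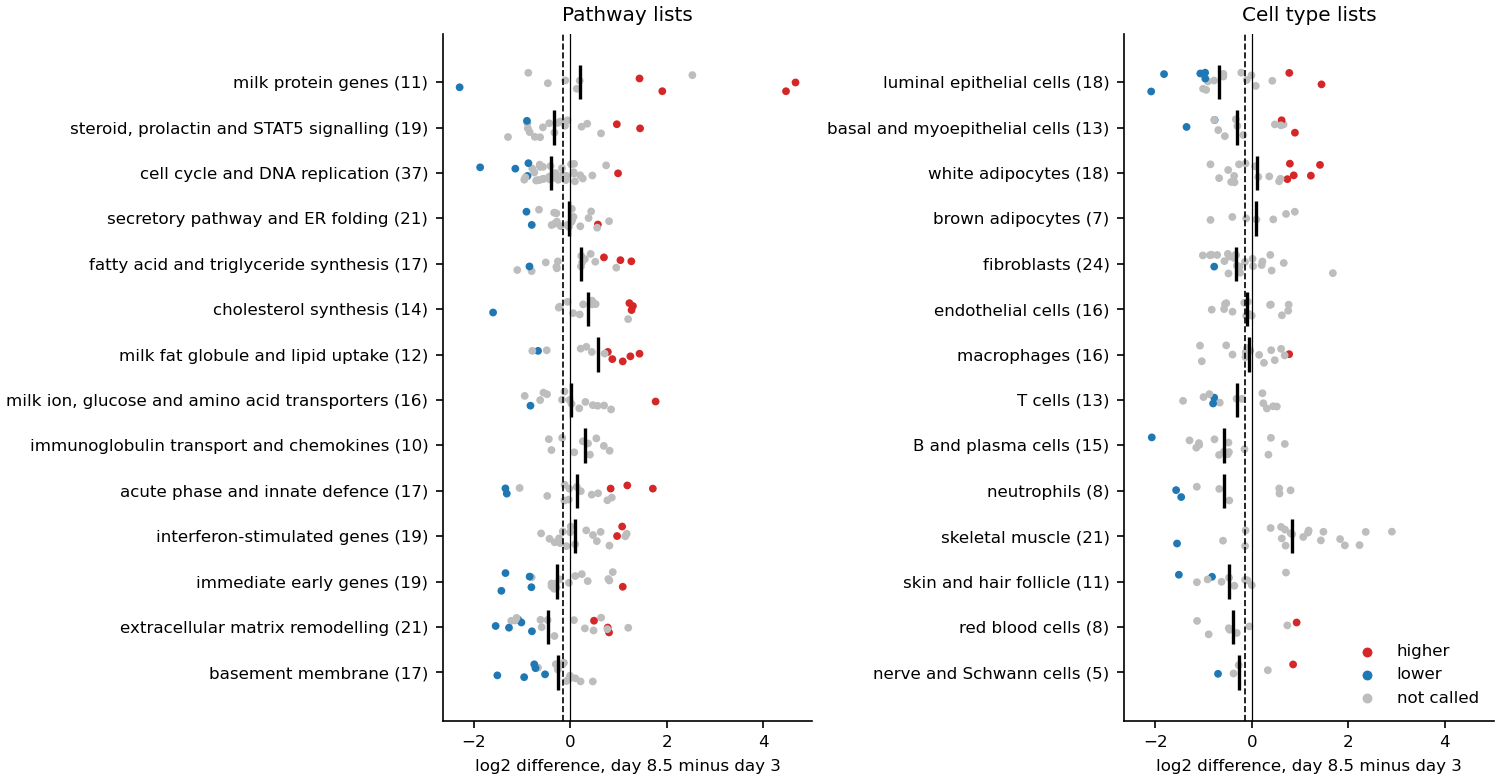
Log2 difference (day 8.5 minus day 3, horizontal) of every tested member of each fixed list, pathways in the first panel and cell types in the second, coloured by call, with a black tick at the list median and a dashed line at the median of all genes, −0.15. The milk fat globule (0.58) and skeletal muscle (0.84) medians lie furthest to the right and the luminal epithelial median (−0.69) furthest to the left.

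Lists of cell types that a whole gland can hold varied widely among the mice of a day. Their counts of calls are read beside 5.95% of all genes higher and 12.4% lower. Skeletal muscle had the highest median, 0.84, with 0 of 21 members higher and 1, the slow troponin Tnni1, lower. That call was lost under both other scalings and in every leave-out but that of day 8.5 mouse B (adjusted p up to 0.22). Its summed signal was 836, 2090 and 3673 on day 3 and 5355, 9221 and 1869 on day 8.5, overlapping, with day 8.5 mouse B the highest and day 3 mouse A the lowest. The B and plasma cell list summed to 946, 2151 and 1172 against 1208, 630 and 661, with 0 of 15 higher and 1 lower (Igll1). T cells had 0 of 13 higher and 2 lower, Lat (−0.80) and Thy1 (−0.78), with a median of −0.32, and their summed signals were 1216 to 1681 on day 3 and 666 to 1137 on day 8.5, apart, while their mean log2 signals overlapped. Both calls ended without day 3 mouse B, with adjusted p up to 0.12 for Lat and 0.20 for Thy1 over the leave-outs. Skin and hair follicle markers had summed signals of 1642 to 1830 on day 3 and 1234 to 1318 on day 8.5, most of it from Sprr1b (1350.8, 1207.9 and 1187.1 against 1014.1, 993.8 and 908.1), which was not called. Krt10 differed by 0.71 in the opposite direction, uncalled. Of 11 tested, 0 rose and 2 fell, the hair keratin Krt32 (−1.51, limma adjusted p 0.0094) and loricrin (Lor, −0.82, adjusted p up to 0.13 over leave-outs that include day 3 mouse A), and Krt27 was under the floor in all 6 arrays. The part of this list in the lower signals of Krt6b and Ly6d was not tested.

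The remaining cell type lists are small, and 18.3% of all genes were called. Neutrophil elastase (Elane) read 70.3, 94.5 and 86.5 on day 3 and 25.4, 36.7 and 23.6 on day 8.5, a difference of −1.57 ± 0.33 (limma adjusted p 0.0023) kept in each leave-out, and Csf3r fell by 1.46, a call lost without day 3 mouse B or C or day 8.5 mouse A or C (adjusted p up to 0.096). The list had 0 of 8 higher and 2 lower. Fibroblast markers had 0 of 24 higher and 1 lower (Thy1, lost in every leave-out) with a median of −0.32. Endothelial and brown adipocyte markers had no calls among 16 and 7 in limma, and macrophage markers had 1 of 16 higher (Ctss). In the fit of all probe sets, a dimmer probe set of endothelial Emcn was called higher (1.51, limma adjusted p 0.0085). Dimmer probe sets of the macrophage genes Csf1r (−1.26) and C1qb (−0.99) were called lower there. So were dimmer ones of the fibroblast genes Col1a2 (−1.05), Col5a1 (−1.11) and Fbln1 (−0.87). Ucp1, the brown fat uncoupling protein, ranged from 5.0 to 73.0 on day 3 and from 4.5 to 103.0 on day 8.5. Red blood cell genes had a median of −0.38 and summed signals of 4999 to 5859 on day 3 and 3581 to 4554 on day 8.5, with 1 of 8 called, Car2, which was higher. Nerve and Schwann cell genes had 1 of 5 higher (Pmp22) and 1 lower (Mag). All 3 calls were lost without day 3 mouse C or day 8.5 mouse A or C, among others, with adjusted p up to 0.091 for Car2, 0.17 for Pmp22 and 0.14 for Mag.

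**Figure D4:**
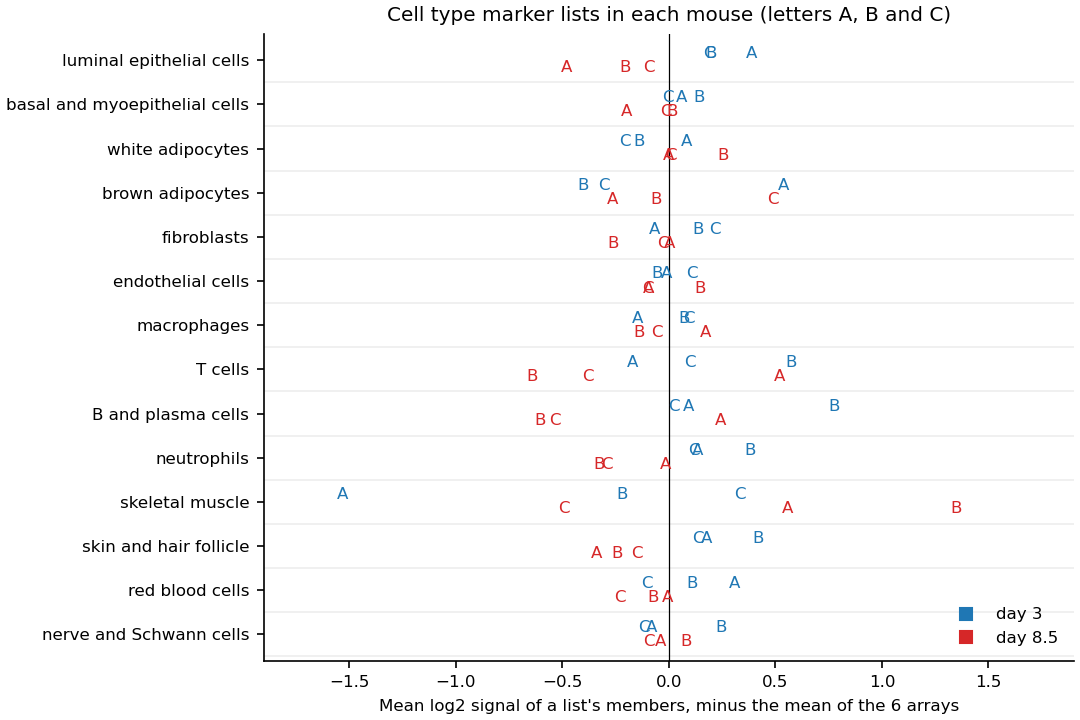
Mean log2 signal of each cell type list in the 6 arrays (horizontal, centred on the mean of the 6), with mice marked by letter and days by colour. Luminal, skin and neutrophil lists separate the days as deposited, while the skeletal muscle, B cell and T cell lists overlap between the days. After median scaling the median log2 differences of the luminal, skin and neutrophil lists were −0.34, −0.12 and −0.22.

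Arl2bp, which encodes a binding partner of the small GTPase ARL2, takes only 2 levels in the series. In 29 arrays it read 63.2 to 108.8 and in 25 arrays 410.6 to 804.0, with no array in between, and 5 time points held both levels. All day 3 mice were at the upper level (663.7, 804.0 and 714.3), whereas on day 8.5 mice A and B were at the lower (73.0 and 90.3) and mouse C at the upper (547.0). The difference of −2.24 ± 0.60 (limma adjusted p 0.01) was lost without day 8.5 mouse A (adjusted p 0.11). Glo1, the gene of glyoxalase 1, mirrored this split on day 8.5, at 503.9 and 475.2 in mice A and B and 212.1 in mouse C, beside 207.2, 335.8 and 162.3 on day 3.

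Genes that follow this level were found from the slope of each gene on log2 Arl2bp within time points. Of 7310 genes other than Arl2bp, 46 had a called slope (0.629%), 11 positive and 35 negative. The steepest among named genes was Mup3, a major urinary protein, with a slope of −0.58 read from a probe set of the family type that related genes can share. Its day 8.5 mice A and B read 1428.5 and 1218.2 against 587.9 in mouse C. Cyp2e1, a cytochrome P450 of liver and fat, had a slope of −0.48 with 4622.9, 4052.6 and 2208.9 on day 8.5. In both genes the day 3 mice were close together, at 922.4 to 1040.5 and 4621.9 to 4978.7. Slopes were also called for Cmbl (−0.50), Nnmt (−0.45), Mup5 (−0.42), Glo1 (−0.40) and Cidec (−0.37). When the day 8.5 arrays were left out 52 slopes were called, 37 of them shared, and when day 3 was left out as well 44 were called, 36 of them shared. With Glo1 in the model as well, 1 slope remained.

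Of the 1340 genes called between the days, 11 followed Arl2bp, a share near the 46 of 7310 (0.629%) over all genes. Those that rose were Wfdc21, Retn, Psat1, Hadhb and a probe set with several symbols. Wfdc21, a secreted whey acidic protein-type inhibitor, read 106.5, 105.7 and 100.4 on day 3 and 553.2, 232.0 and 204.8 on day 8.5, a difference of 1.51 ± 0.44 (limma adjusted p 0.017) with a slope of −0.44. It lost its call without day 3 mouse B or C or day 8.5 mouse A (adjusted p up to 0.16). Those that fell were Noct and 5 probe sets without exactly 1 symbol. Noct, a circadian phosphatase, read 136.7, 261.2 and 395.6 against 62.2, 107.9 and 128.8, or −1.34 ± 0.35 (limma adjusted p 0.009) with a slope of 0.37. It lost its call without day 3 mouse C or day 8.5 mouse A (adjusted p up to 0.094). This probe set is of the family type, and another of Noct read 93.3, 109.8 and 105.4 against 106.3, 76.1 and 122, a difference of −0.04, so the fall cannot be assigned to Noct. The brightest of the 5 probe sets read 4609.5, 5562.2 and 5221.6 on day 3 and 886.6, 2381.6 and 3603.1 on day 8.5, with mouse C of day 8.5 nearest to day 3 and mouse A furthest.

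With log2 Arl2bp as a covariate none of these 11 was called in limma, and the count over all genes fell to 234 (3.20%), 73 higher and 161 lower. Of the 435 genes that rose 73 kept their call, and of the 905 that fell 148 did. The sign stayed the same for 99.9% of the 1340. The Arl2bp level and the day coincide in 5 of the 6 mice, so that they cannot be told apart in those. The median standard error grew from 0.29 to 0.34, and the median size of the differences of the 1340 genes went from 0.94 to 0.82. Of the 98 called genes with 1 symbol that the naming rule gave, 33 kept their call with the covariate and 65, Arl2bp itself included, did not. Among those kept were Csn1s2a, Csn2, Csn3, Btn1a1, Elf5, Fmod, Gjb6, Yipf4, Sar1b, Penk, Orm1, Hsd11b1, Lpl, Sqle, Sox4, Krt6b, Igll1, Elf3, Jun, Dusp1, Tnc and Elane. Among those lost were Alb (adjusted p 0.056), Mmp14 (0.057), Rbp4 (0.058), Cldn4 (0.16), Ly6d (0.11), Lep (0.092), Hspg2 (0.17), Gata3 (0.083), Rspo1 (0.09), Cd36 (0.097), Junb (0.065), Foxm1 (0.061), Prkar1b (0.057), Cldn3 (0.11) and Rab25 (0.11). Cdh1, a list member, was lost as well (0.051).

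**Figure D5:**
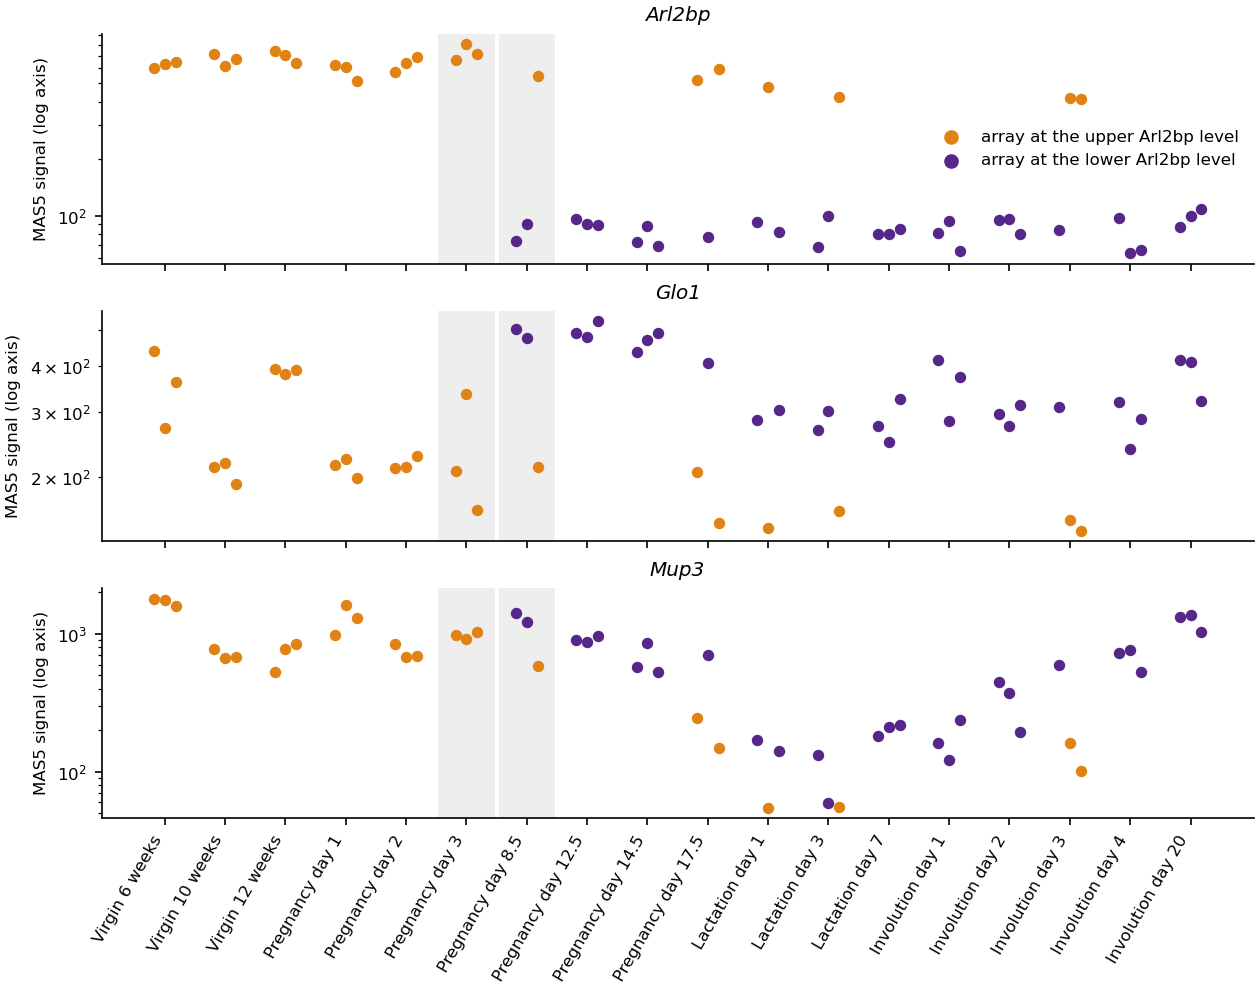
MAS5 signals (vertical, log scale) of Arl2bp, Glo1 and Mup3 in all 54 arrays in order of time point (horizontal), coloured by the Arl2bp level, with grey bands over days 3 and 8.5. No array lies between 108.8 and 410.6 for Arl2bp, and within day 8.5 the array at the upper level has the lowest Glo1 and Mup3.

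The neighbouring days 2 and 12.5 gave a comparison between other arrays of the series. These arrays also entered the filter, the probe set choice and the estimate of spread behind the calls, so they were not independent of them. The comparison carries the same Arl2bp split, since all day 2 mice were at the upper level (576.4 to 688.1) and all day 12.5 mice at the lower (89.5 to 96.4). Between them 288 genes were called (3.94%), 152 higher on day 12.5 (2.08%) and 136 lower (1.86%). Of the 435 genes that rose from day 3 to day 8.5, 54 were called higher there, 0 lower, and 384 (88.3%) had the same sign, where 42.3% of all genes were higher on day 12.5. Of the 905 that fell, 37 were called lower and 2 higher, and 746 (82.4%) had the same sign, where 57.2% of all genes were lower. Genes called the same way in both comparisons numbered 91, and 33 with Arl2bp as a covariate. The median differences of the 435 and the 905 were 0.39 and −0.29.

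Individual genes behaved differently across that wider span. Csn1s2a (5.34), Csn2 (4.63), Csn3 (2.47), Elf5 (2.86), Btn1a1 (3.07), Fmod (3.15), Gjb6 (3.33) and Alb (2.68) were again higher, each with a called log2 difference, and 7 of 11 milk protein genes were called higher with a median of 3.07. Ly6d (−3.22) and Xist (−1.47) were again lower. Wap reversed, with a rise of 3.66 (limma adjusted p 0.0027). Penk (−0.09), Lpl (−0.08), Cd36 (−0.08), Slc6a20b (−0.12) and Cldn3 (0.45) had differences near 0 or opposite in sign, and none was called. List medians changed sign for skeletal muscle (0.84 between days 3 and 8.5, −0.44 here), luminal epithelium (−0.69 and 0.19) and white adipocytes (0.10 and −0.21). The median of all genes here was −0.07. The milk fat globule and lipid uptake median stayed positive, at 0.60.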

How the data were processed

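The deposited files hold signal intensities that the authors computed with MAS5 for 54 arrays, per the submitters' processing notes. No MAS5 version is given in the sources used here. Each array's 2% trimmed mean lay at 100.05 to 100.07. Here signals under 9.4 (25th percentile of all values) were raised to 9.4 before log2 was taken. A probe set was used if it passed 22.8 (40th percentile) in every mouse of some time point. Of these 8640, the brightest stood for each of 1137 genes with several. Platform annotation gave 10833 probe sets 1 symbol, 396 several and 1193 none. limma 3.58.1 (R 4.3.3) was fitted to all 54 arrays with a variance trend (36 residual and 6.77 prior degrees of freedom), two-sided, with Benjamini-Hochberg adjustment over all 7311 genes, so each standard error draws on the spread at all 18 time points. Slopes on log2 Arl2bp came from the same fit with that signal added.

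The labels name 3 mice per time point by letter, and that number limits the precision. The comparison, the 28 gene lists (14 of pathways, 14 of cell types) and the named genes were chosen with earlier results of these data known. Named genes were the 15 largest rises and 15 largest falls among called genes with 1 symbol and groups apart, up to 5 members of each list with at least 2 calls, 15 fixed genes, and the 10 steepest and all called followers of Arl2bp. The text gives a part of these, and other called list members by name. Among the largest rises and falls, groups apart was a condition of the choice, so it adds nothing to their calls. No set test was run. Alternatives changed the floor, scaling, filter, probe set choice, arrays fitted, trend, weights, replicate block and covariates, and left out each array in turn. The pipeline was tested on simulated data. Python 3.11.15 with pandas 2.3.3, matplotlib 3.10.9 and numpy 2.4.6 was used for tables and figures. Promoter windows are RefSeq's, on GRCm38.p6.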

Additional observations from a re-analysis of the deposited data

How the results depend on the processing

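Counts of called genes within 1.5 times of the deposited setting were found without a floor, with a higher floor, under all filters, without collapsing, without a trend and when the beta-actin ratio was a covariate. Array weights gave 2666 calls (1000 higher, 1666 lower), only the 6 arrays 6 (4 and 2), Arl2bp as a covariate 234 (73 and 161), and Arl2bp with Glo1 246 (78 and 168). Quantile normalization gave 484 lower calls, and median scaling 1296 higher and 269 lower. Leaving out 1 array gave 397 to 1879 calls, 122 to 687 higher and 275 to 1192 lower. Followers of Arl2bp numbered 1 with Glo1 in the model. Between days 2 and 12.5, 150 genes were called with the Arl2bp covariate, and genes called the same way in both comparisons numbered 173 after median scaling and 33 with Arl2bp, against 91. Mup3, with a difference of 0.04, was lower by −1.26 with Arl2bp (limma adjusted p 0.029) and by −1.22 with Arl2bp and Glo1 (0.034). The cause of these changes was not tested.

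The labels give the letters no meaning beyond naming mice. Deviations of same-letter mice correlated at −0.06, 0.13 and 0.14, and those of mice with different letters at −0.22 to 0.13. With 3 mice a day, these values cannot settle whether the letters pair the mice. With the letter as a replicate block 1434 genes were called, 477 higher and 957 lower, 326 between days 2 and 12.5, and 30 followers of Arl2bp against 46. Signals near the floor limit what can be read of the dim genes.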
